A study of Mus musculus with 3 samples.

Results

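The respiratory chain and ATP synthase genes of the mouse nuclear genome were examined for open chromatin in the uterus on gestation day 4. They were taken by symbol from the protein-coding genes of the RefSeq table: all symbols that start with Nduf, Uqcr or Atp5, Sdha to Sdhd, and Cox4 to Cox8 with any suffix. The rule gave 96 of 21523 protein-coding genes, spread over 19 chromosomes. It gave 41 complex I subunit genes, 8 complex I assembly factor genes (Ndufaf), 4 genes of complex II, 8 of complex III, 18 of complex IV and 17 of complex V.

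The samples were whole uteri of 3 pregnant C57BL/6J wild-type females, 6 to 10 weeks old, mated with fertile males and left untreated. Blastocysts were found in the uterine flush on gestation day 4. Open chromatin was mapped by FAIRE-seq, in which formaldehyde-fixed chromatin is sheared and extracted with phenol and chloroform, so that DNA free of nucleosomes stays in the aqueous phase and is sequenced. A single list of 12413 peaks was analysed, with no sample named, so the spread between mice is unknown and groups of samples could not be tested.

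Mitochondria make ATP by passing electrons from NADH and succinate along complexes I to IV of the inner membrane. Complexes I, III and IV pump protons, complex II does not, and complex V uses the proton gradient to make ATP. Complexes I, III, IV and V mix subunits from the nucleus with subunits from the mitochondrial genome, whereas complex II is wholly nuclear. Cytochrome c oxidase, complex IV, is known for subunits with tissue-specific isoforms, used in heart and skeletal muscle, testis or lung in place of the form found in most tissues. The nuclear genes are known targets of the transcription factors Nrf1, Gabp, Yy1 and Esrra.

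Most respiratory chain genes had open chromatin at an end of the gene, but their peaks were mostly small. A peak of the list overlapped the window of 1 kb around either annotated gene end at 64 of the 96 genes (66.7%), against 44.5% of all protein-coding genes (9576 of 21523). The fold enrichment is the authors' value for each peak, read as its height over the local background. For a gene with several peaks the highest was used. Its median was 4.85 over the 64 genes (interquartile range 4.07 to 6.22), against 6.33 over all genes with such a peak (4.85 to 8.34). Only 16 of the 64 lay above the median of all genes, and 8 above its upper quartile. The pileup at the summit, read as the number of overlapping fragments, had a median of 42 at these genes and 61 at all genes. The higher share therefore rested on small peaks: among the 6206 peaks with the highest fold, 24.0% of the respiratory chain genes had one, against 26.2% of all protein-coding genes. Peaks at these genes were also narrower, with a median width of 376 bp against 469 bp.

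The 5 complexes differed in how many of their genes had a peak. Complex II had one at 4 of 4 genes, complex V at 13 of 17 (76.5%), complex III at 6 of 8 and complex I at 29 of 41 (70.7%). Complex IV stood at 6 of 18 (33.3%), the one complex below the share of all genes by gene ends. The complex I assembly factors also stood at 6 of 8. Median folds ran from 4.43 in complex I, through 4.44 for its assembly factors, 4.57 in complex III, 5.12 in complex II and 5.56 in complex IV, to 5.89 in complex V. Each of these medians lay below that of all genes, and the ranges of the complexes overlapped throughout. Genes are not replicates, so these shares were compared without a test.

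**Figure D1:**
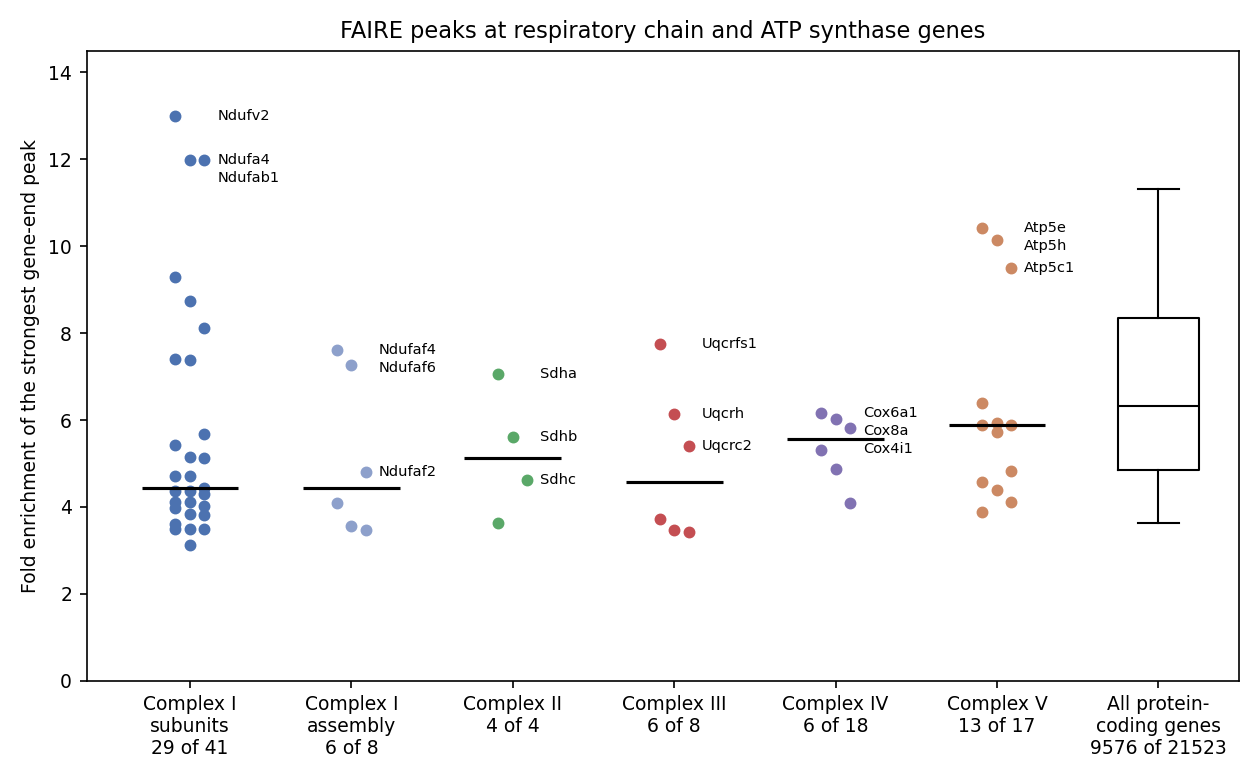
Fold enrichment of the strongest gene-end peak for each gene (points, y axis) by complex (x axis), with the median of each complex (bars) and, on the right, all protein-coding genes with a peak (box from the lower to the upper quartile, line at the median, whiskers from the 5th to the 95th percentile). Below each name stands the number of genes with a peak of all its genes, the 3 highest genes are named, and complex I holds both the highest point, Ndufv2 at 13.0, and the lowest, Ndufb10 at 3.11.

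Complex I, the NADH dehydrogenase, takes electrons from NADH through a matrix arm of 7 nuclear core subunits. Of these, 5 had a gene-end peak. Ndufs7, a core subunit near the quinone site, had none. Ndufv2, which carries an iron-sulfur cluster, had the highest peak of all 96 genes (chromosome 17, 66101210 to 66101823), 13.0-fold with a pileup of 170 and its summit 28 bp upstream of the gene. The other core subunits had small peaks. Ndufv1, which binds NADH, reached 4.03-fold, Ndufs3 3.83-fold and Ndufs8 3.82-fold, each with its summit within 117 bp of the start. At Ndufs1, the largest core subunit, the peak of 3.50-fold was shared with the elongation factor gene Eef1b2, and its summit lay 511 bp outside Ndufs1.

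Accessory subunits of complex I surround the core and are needed for its stability. Of 34 such genes, 24 had a gene-end peak, with a median of 4.71-fold. The highest were Ndufa4 (12.0-fold, chromosome 6, 11907411 to 11908027) and Ndufab1 (also 12.0-fold, chromosome 7, 122101605 to 122102049). Ndufab1 encodes the mitochondrial acyl carrier protein, and its summit lay 7 bp from the start of the gene. Ndufa4, first described as a complex I subunit, is now placed in complex IV. Its summit lay 372 bp upstream, and the peak was shared with the neighbouring gene Phf14. Counted with complex IV, Ndufa4 and Ndufa4l2 brought that complex to 35.0%.

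Ndufa6 followed at 9.30-fold, with its summit 4 bp from the start, then Ndufb9 (8.73-fold) and Ndufa13 (8.11-fold), also known as Grim19. Ndufc1 reached 7.42-fold and Ndufa10 7.38-fold. The remaining 17 accessory genes with a peak lay well below them, from 5.67-fold at Ndufb7 to 3.11-fold at Ndufb10. They were Ndufb2 (5.42), Ndufb1 (5.15), Ndufb6 (5.12), Ndufv3 (4.72), Ndufa11 (4.71), Ndufb5 (4.43), Ndufb3 (4.37), Ndufb8 (4.37), Ndufa8 (4.30), Ndufa5 (4.12), Ndufs4 (4.12), Ndufs5 (3.98), Ndufs6 (3.61), Ndufa12 (3.50) and Ndufa2 (3.50), all as fold enrichment, beside these 2. Ndufs4 and Ndufs6, small subunits of the matrix arm, were thus among the lower ones.

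The summits counted for Ndufa13 and Ndufa11 lay 638 and 1085 bp outside the genes. Both peaks were shared with a neighbour, Tssk6 at Ndufa13 and Vmac at Ndufa11. Ndufb6 had a second peak of 3.64-fold at its other end, and its neighbours in these windows were Topors and Smim27.

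Of the complex I genes, 12 had no gene-end peak. They included the core gene Ndufs7 and the accessory genes Ndufa1, Ndufa3, Ndufa4l2, Ndufa7, Ndufa9, Ndufb4, Ndufb4b, Ndufb4c, Ndufb11 and Ndufc2. Ndufb4b and Ndufb4c are short copies of Ndufb4, 471 and 485 bp long. Reads from copies of this kind cannot always be placed, so their lack of a peak is uncertain. Ndufa1 and Ndufb11 lie on the X chromosome, as does Cox7b of complex IV. None of these 3 X-linked genes had a gene-end peak, whereas 64 of the 93 autosomal genes had one (68.8%). Over all protein-coding genes the shares were 16.4% on the X chromosome (158 of 963) and 45.8% on autosomes. The X-linked pathway genes Slc25a5 (8.69-fold) and Idh3g (4.62-fold) did have a peak.

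The assembly factors named Ndufaf help to build complex I and are not part of the finished enzyme. Ndufaf4 (7.62-fold) and Ndufaf6 (7.26-fold) had the highest peaks and lay far from other genes, 46933 and 41372 bp from the next protein-coding gene end. Ndufaf2 (4.80), Ndufaf7 (4.08), Ndufaf3 (3.56) and Ndufaf8 (3.46) had lower folds, and each shared its peak with a neighbour. Ndufaf1 and Ndufaf5 had none. Of 6 further complex I assembly genes with other names, all 6 had a gene-end peak, the highest at Tmem126b (8.49), Ecsit (7.37) and Foxred1 (7.34).

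Complex II, succinate dehydrogenase, links the chain to the citric acid cycle. All of its genes had a peak, and the folds were lower from Sdha to Sdhd in the order of the letters. Sdha, the flavoprotein, reached 7.06-fold (chromosome 13, 74349995 to 74350394), and Sdhb, the iron-sulfur subunit, 5.61-fold. The membrane anchors were lower, Sdhc at 4.62-fold and Sdhd at 3.62-fold. Sdhd shared its peak with Timm8b, a chaperone gene of the mitochondrial import system, and Sdha shared its peak with Ccdc127.

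Complex III passes electrons from ubiquinol to cytochrome c. Uqcrfs1, the Rieske iron-sulfur protein, had its highest peak (7.75-fold, chromosome 13, 30544916 to 30545591), and no other protein-coding gene end lay within 114743 bp. Uqcrh, the hinge protein, had the widest peak of the 96 genes, 1163 bp at 6.14-fold, shared with Lrrc41. The core proteins differed, with 5.41-fold at Uqcrc2 and 3.43-fold at Uqcrc1. Uqcr11 stood at 3.73-fold. Uqcrq had peaks of 3.46-fold and 3.24-fold, and Uqcr10 and Uqcrb had none.

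Complex V, the ATP synthase, has a catalytic F1 part, a ring of c subunits that turns in the membrane, and a stalk that holds the parts together. All 5 F1 genes had a gene-end peak. Atp5e, the epsilon subunit, was highest (10.4-fold, chromosome 2, 174463850 to 174464334), followed by Atp5c1, the gamma subunit (9.50-fold). Atp5a1 (5.93-fold) and Atp5b (3.88-fold), the alpha and beta subunits that form the catalytic sites, lay lower, as did Atp5d, the delta subunit (5.72-fold). The Atp5d summit lay 539 bp inside the annotated gene, and the peak was shared with Cbarp. This peak of 5.72-fold lay more than 1 kb from every RefSeq start site of Atp5d. The strongest peak within 1 kb of one, at 5.28-fold, had its summit 780 bp upstream of the nearest start site. Of the c ring genes, which encode the same mature protein, Atp5g2 had a gene-end peak (5.89-fold) and Atp5g1 and Atp5g3 had none.

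Of the 9 stalk and membrane subunit genes, 7 had a gene-end peak. Atp5h, the d subunit of the stalk, reached 10.2-fold (chromosome 11, 115419874 to 115420557), well above Atp5mpl (6.39), Atp5j (5.89), Atp5o (4.82), Atp5pb (4.57), Atp5l (4.40) and Atp5md (4.11). Atp5k and Atp5j2, small membrane subunits, had none. Atp5j shared its peak with Gabpa (chromosome 16, 84835277 to 84835818), which encodes the alpha chain of Gabp, itself a regulator of respiratory chain genes.

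**Figure D2:**
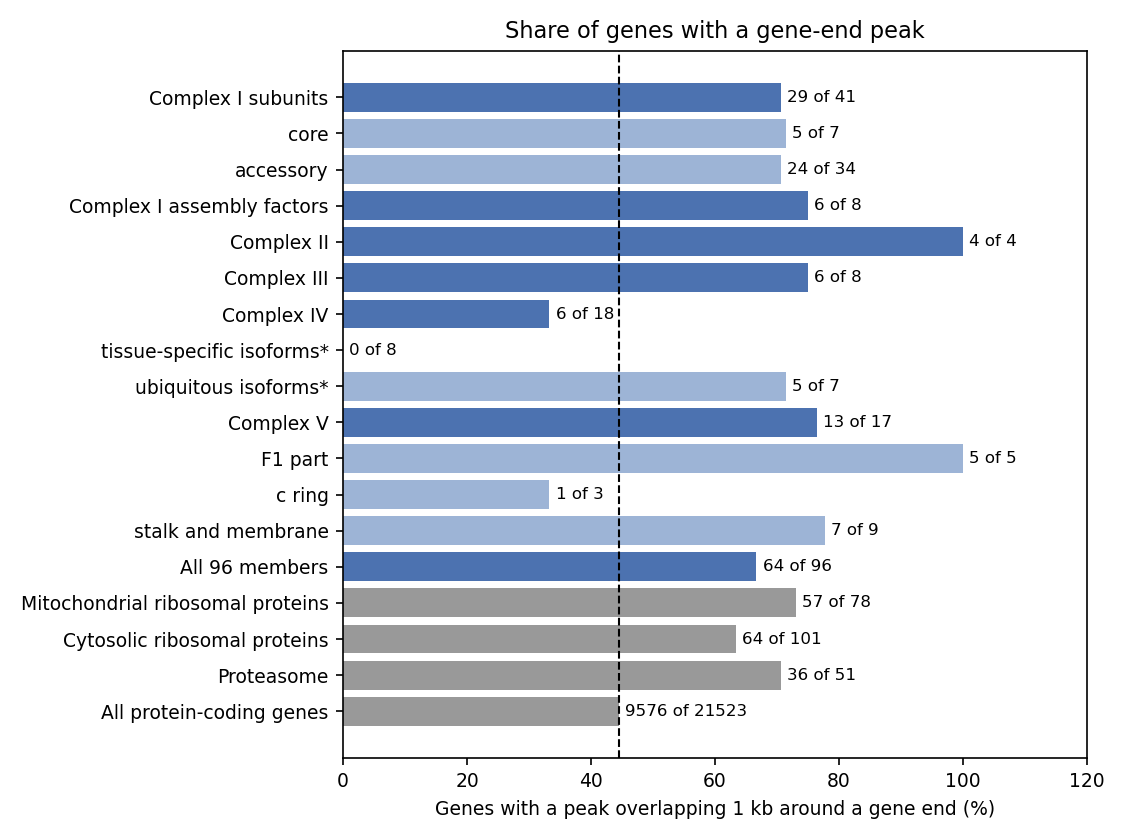
Share of genes with a peak overlapping 1 kb around a gene end (x axis, percent) for each complex (dark bars), its parts (light bars), similar gene groups and all protein-coding genes (grey bars, dashed line at 44.5%), with the counts beside each bar. Isoforms marked with an asterisk include Ndufa4l2 and Ndufa4 beside those of complex IV, and the tissue-specific isoforms stand at 0 of 8.

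The tissue-specific isoforms and the ubiquitous ones stood apart. Within complex IV, none of the 7 tissue-specific genes had a gene-end peak, and 4 of the 6 ubiquitous partners had one (66.7%). Over all protein-coding genes the share was 44.5%, so most genes lacked one. With Ndufa4l2 and Ndufa4 added, it was 0 of 8 tissue-specific and 5 of 7 ubiquitous genes (71.4%). The muscle isoforms Cox6a2, Cox7a1 and Cox8b, the testis isoforms Cox6b2, Cox7b2 and Cox8c, the lung isoform Cox4i2, and Ndufa4l2, known as a hypoxia-induced gene, all lacked one. The nearest peak of the list lay from 9043 bp (Cox7a1) to 109801 bp (Cox7b2) from the gene. With windows of 5 kb, none of the 8 gained a peak, and 51.9% of all protein-coding genes had one. Of 5 marker genes of heart and skeletal muscle 1, Ckm, had a gene-end peak (3.87-fold), as did 1 of 4 smooth muscle markers, Des (4.45-fold), and 0 of 4 testis markers. The part of cell types in the result was not tested.

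Of the ubiquitous partners, Cox6a1 reached 6.17-fold (chromosome 5, 115348623 to 115349169), Cox8a 6.01-fold, Cox4i1 5.81-fold and Cox6b1 4.08-fold, beside Ndufa4. The Cox4i1 peak was 1035 bp wide and shared with Emc8 and Gm27021. Cox7a2 and Cox7b had no gene-end peak, and neither did Cox5a, Cox7c and Cox7a2l, which have no tissue-specific partner on the list. Cox5b (5.31) and Cox6c (4.87) had one. Without the tissue-specific isoforms, complex IV stood at 6 of 11 (54.5%) and all members at 64 of 88 (72.7%).

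**Figure D3:**
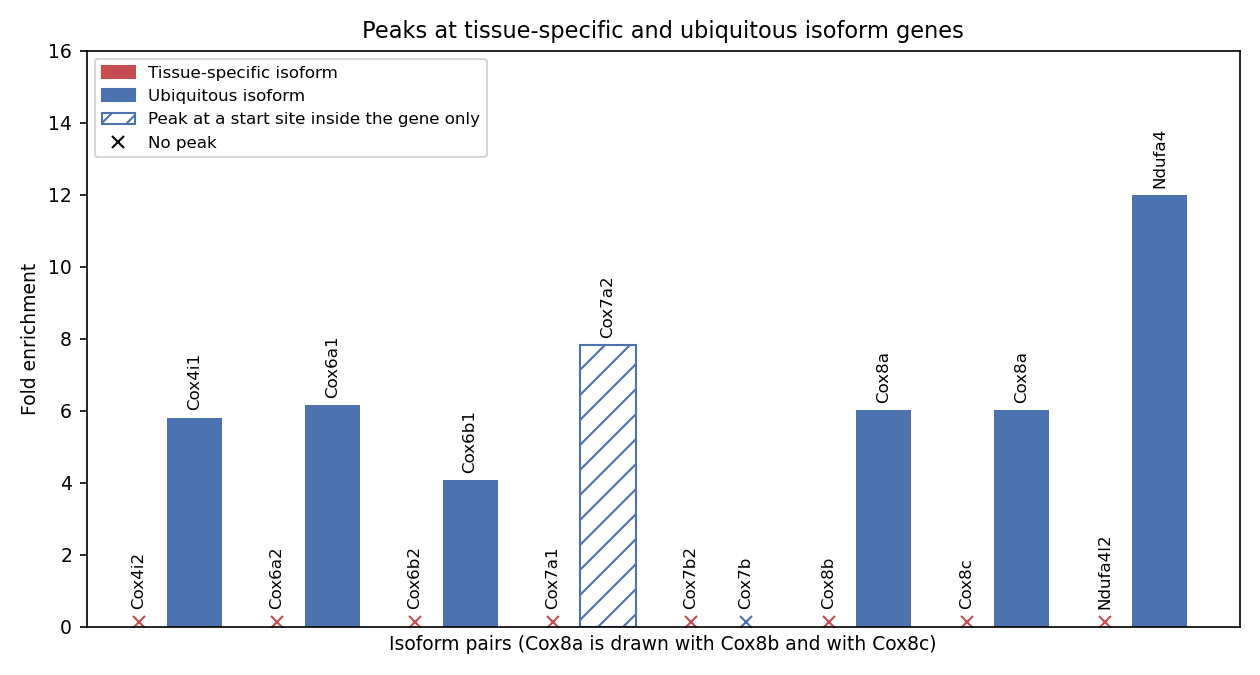
Fold enrichment (y axis) of the gene-end peak at tissue-specific (red, left of each pair) and ubiquitous isoform genes (blue, right), with crosses for genes without a peak. All 8 tissue-specific genes are crosses, and the hatched bar for Cox7a2, at 7.82, is a peak at a start site inside the annotated gene.

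Start sites gave some genes a peak that the gene ends did not. RefSeq promoter windows (GRCm38.p6) were matched by gene ID for 78 of the 96 genes, some with several start sites, and for these a peak within 1 kb of a start site was counted as well. It was found at 56 of 78 (71.8%), against 46.7% of the 17274 protein-coding genes with such a window. At 3 genes it was the sole peak, inside the annotated gene: Cox5a (11.7-fold, chromosome 9, 57521037 to 57521693, summit 16 bp downstream of the start), Cox7a2 (7.82-fold, 83 bp downstream) and Atp5g3 (6.01-fold, 118 bp downstream). By gene end or start site, 67 of 96 genes had a peak, with complex IV at 8 of 18 (44.4%) and complex V at 14 of 17. The share of the 96 genes was 69.8%, against 48.1% of all protein-coding genes. By start site alone complex IV stood at 6 of 13 (46.2%), close to the 46.7% of all genes. It was still the lowest complex, against 74.3% in complex I, 100% in complex II, 80% in complex III and 80% in complex V. The tissue-specific genes Cox4i2, Cox6a2 and Cox8c, which had no gene-end peak, have no promoter window and are missing from the 13. The tissue-specific isoforms with a window, Cox6b2, Cox7a1, Cox7b2 and Cox8b, had no start-site peak. Among the genes described by their ends alone were Atp5a1, Atp5mpl, Cox4i1, Cox4i2, Cox6a2, Cox6c, Cox8c, Ndufa2, Ndufa4l2, Ndufaf6, Ndufb4c, Ndufb9, Ndufs1, Sdhc, Uqcrb, Uqcrc2 and Uqcrq.

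For 53 genes with a gene-end peak the strand was known. In all 53 the strongest summit lay nearer the annotated start of the gene than its other end. The share was 95.5% over all such protein-coding genes. At Atp5d this peak lay more than 1 kb from every RefSeq start site. Of the 56 start-site peaks, 37 had their summit within 100 bp of a start site (66.1%), against 53.5% over all genes, and the median distance was 62 bp against 90 bp. Summits ranged from 1176 bp upstream, at Ndufa13, to 328 bp downstream, at Ndufs4.

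**Figure D4:**
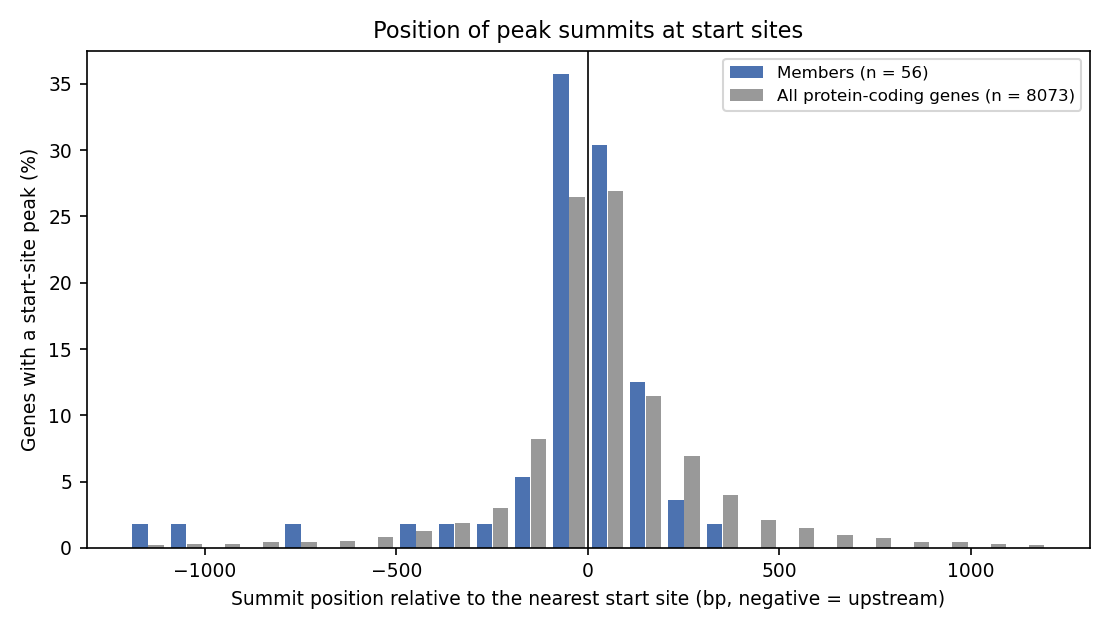
Position of the strongest summit relative to the nearest start site (x axis, bp, negative upstream, bins of 100 bp) as a percentage of genes with a start-site peak (y axis), for respiratory chain genes (blue, 56 genes) and all protein-coding genes (grey, 8073 genes). In both sets most summits fall in the bins on either side of the start, and 37 of the 56 lie within 100 bp.

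The sequences before the start of 3 isoform pairs are shown to compare their CpG content. They were chosen for that difference after their values were seen. In the one other pair with windows for both genes the difference ran the other way, with an observed to expected CpG ratio of 0.564 at Cox7b2 and 0.368 at Cox7b. Each is the 150 bases upstream of the RefSeq start on GRCm38.p6, 5′ to 3′ on the strand of the gene, with CpG dinucleotides in capitals. The tissue-specific gene of each pair is on the upper line.
Cox6b2 (chr7:4753095-4753244, minus strand): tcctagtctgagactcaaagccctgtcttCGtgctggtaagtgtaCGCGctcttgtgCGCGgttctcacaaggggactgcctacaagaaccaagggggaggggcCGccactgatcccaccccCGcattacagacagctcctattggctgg
Cox6b1 (chr7:30626115-30626264, minus strand): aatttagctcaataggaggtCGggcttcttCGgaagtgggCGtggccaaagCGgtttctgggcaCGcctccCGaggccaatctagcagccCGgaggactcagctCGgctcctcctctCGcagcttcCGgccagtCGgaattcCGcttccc
Cox7a1 (chr7:30184021-30184170, plus strand): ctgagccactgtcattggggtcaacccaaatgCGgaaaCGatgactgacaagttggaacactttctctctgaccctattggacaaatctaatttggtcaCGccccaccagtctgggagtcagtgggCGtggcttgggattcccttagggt
Cox7a2 (chr9:79759854-79760003, minus strand): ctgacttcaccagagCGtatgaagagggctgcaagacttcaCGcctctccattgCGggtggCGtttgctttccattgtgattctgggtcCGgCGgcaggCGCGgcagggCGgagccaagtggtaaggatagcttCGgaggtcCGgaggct
Cox8b (chr7:140900447-140900596, minus strand): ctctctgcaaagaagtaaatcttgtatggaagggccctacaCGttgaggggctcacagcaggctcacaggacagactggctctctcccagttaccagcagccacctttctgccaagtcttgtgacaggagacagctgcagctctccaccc
Cox8a (chr19:7217617-7217766, minus strand): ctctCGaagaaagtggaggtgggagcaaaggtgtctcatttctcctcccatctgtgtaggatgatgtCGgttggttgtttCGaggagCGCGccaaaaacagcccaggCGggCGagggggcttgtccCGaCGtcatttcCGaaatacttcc

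These stretches held 7 CpG in Cox6b2 and 12 in Cox6b1. The muscle gene Cox7a1 held 4 and its partner Cox7a2 11. The muscle gene Cox8b held 1 and Cox8a 10, although both stretches had a G+C content of 55.3%. Over the whole windows of 300 bases, the ratio of observed to expected CpG had a median of 0.382 for the 4 tissue-specific genes and 0.831 for the 78 members. It was 0.571 over all protein-coding genes, with 0.797 for those with a gene-end peak and 0.286 for those without. Members without a gene-end peak, at 0.744, thus lay near genes that have one. Their median G+C content was lower than that of members with a peak, at 60.0%. Cox5a, Cox7a2 and Atp5g3, which had a peak only at a start site inside the gene, are counted among members without.

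Motif letters for regulators of respiratory genes were then counted in the windows of 300 bases, from 250 before the start to 50 after it, on both strands. Different motifs were allowed to overlap, and a gene counted where any of its start sites held the letters. The letters of Nrf1 (GCGCANGC) were in 25 of 78 members (32.1%) and in 2588 of 17274 protein-coding genes. Those of Gabp and other Ets factors (CCGGAAG) stood at 24.4% against 13.1%, those of Yy1 (ATGGCG) at 26.9% against 12.5%, and those of Esrra (AAGGTCA) at 10.3% against 4.72%. For Sp1 (GGGCGG) the shares were 44.9% and 49.8%, for Nfy (CCAAT) 43.6% and 42.7%, and for the TATA box (TATAAA) 10.3% and 14.9%. The letters of Nrf1, Ets factors, Yy1 and Sp1 each hold a CpG. The shares were not matched for the CpG ratio, with medians of 0.831 in members and 0.571 over all genes. The part of base composition was not tested.

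Members with and without a gene-end peak differed by motif, with Cox5a, Cox7a2 and Atp5g3 again counted as without despite their start-site peaks. The Ets letters were in 17 of 53 windows of genes with a peak (32.1%) and in 2 of 25 without (8.00%), while over all protein-coding genes it was 1544 of 7702 with a peak and 721 of 9572 without (7.53%). Nrf1 letters stood at 35.8% and 24.0% of members, against 25.1% and 6.82% of all genes. Yy1 letters ran the other way in members, 12 of 53 with a peak (22.6%) and 9 of 25 without, against 18.2% and 7.96% of all genes. The Sp1 letters, in 75.1% of all genes with a peak, were in 49.1% of members with one. A match of so few letters is not a binding site, and no test was made.

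**Figure D5:**
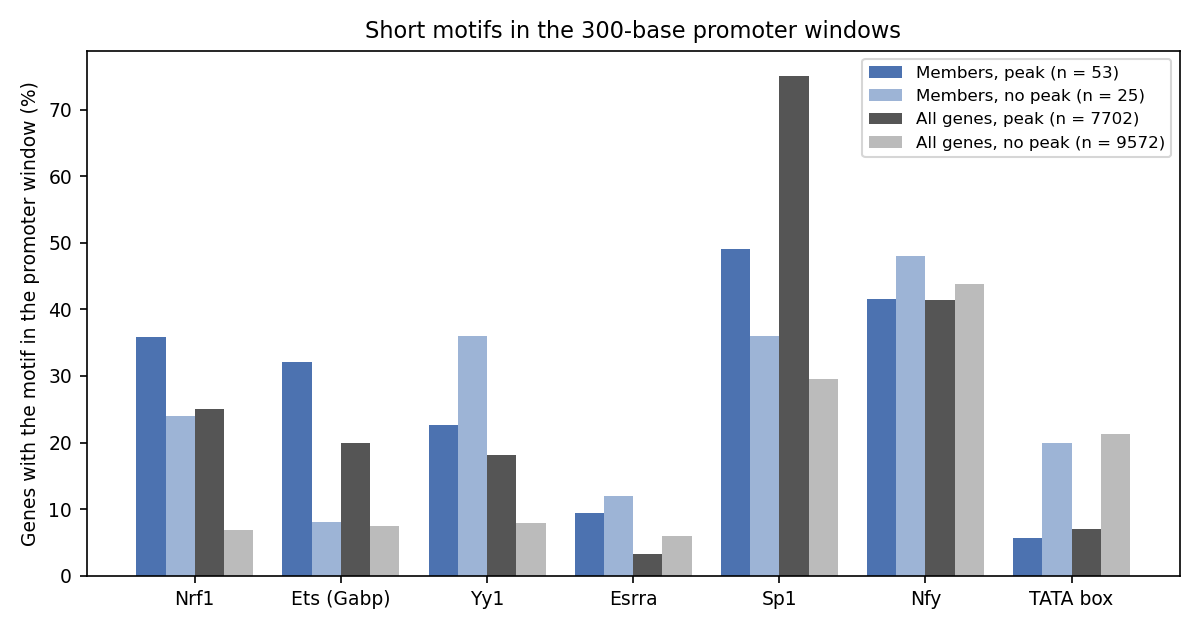
Share of genes whose promoter window of 300 bases holds each motif (y axis, percent; x axis, motif), for respiratory chain genes with and without a gene-end peak (blue) and all protein-coding genes with and without one (grey). The blue bars are above the grey ones of the same kind for Nrf1, Ets, Yy1, Esrra and Nfy. The gap is small for Ets without a peak (8.00% against 7.53%) and for Nfy with a peak (41.5% against 41.4%). The dark blue bar is below the dark grey one for Sp1 and the TATA box.

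The sequences below were chosen to show these letters at members of different complexes. They are again the 150 bases before the RefSeq start on GRCm38.p6, with matches to the Nrf1 and Ets letters on either strand in capitals. Sdha, Cox6a1, Ndufaf4 and Ndufs3 had a gene-end peak, and Ndufb4 had none.
Sdha (chr13:74350241-74350390, minus strand): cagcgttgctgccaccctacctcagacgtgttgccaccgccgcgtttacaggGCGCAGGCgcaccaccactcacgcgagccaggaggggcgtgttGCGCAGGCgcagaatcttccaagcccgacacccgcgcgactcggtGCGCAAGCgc
Cox6a1 (chr5:115348959-115349108, minus strand): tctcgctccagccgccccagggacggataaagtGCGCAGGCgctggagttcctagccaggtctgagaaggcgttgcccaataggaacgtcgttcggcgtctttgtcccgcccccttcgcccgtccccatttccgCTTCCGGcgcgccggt
Ndufaf4 (chr4:24897933-24898082, plus strand): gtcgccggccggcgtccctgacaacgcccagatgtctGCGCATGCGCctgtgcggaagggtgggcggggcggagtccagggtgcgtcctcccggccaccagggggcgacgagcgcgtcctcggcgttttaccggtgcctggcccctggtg
Ndufs3 (chr2:90904722-90904871, minus strand): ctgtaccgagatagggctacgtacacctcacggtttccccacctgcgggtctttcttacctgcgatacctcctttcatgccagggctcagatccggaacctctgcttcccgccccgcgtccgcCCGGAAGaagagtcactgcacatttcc
Ndufb4 (chr16:37654369-37654518, minus strand): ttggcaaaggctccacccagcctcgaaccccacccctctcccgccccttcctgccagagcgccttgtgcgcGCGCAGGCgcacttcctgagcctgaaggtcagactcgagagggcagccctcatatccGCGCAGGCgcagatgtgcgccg

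Sdha held 3 matches to the Nrf1 letters in this stretch. Cox6a1 held 1 and, close to the start, 1 Ets match. In Ndufaf4 a single palindromic stretch matched on both strands, which counts as 2. Ndufs3 held 1 Ets match. Ndufb4 held 2 Nrf1 matches, and the nearest peak of the list lay 107809 bp from the gene. The letters were thus found at genes with and without a gene-end peak. The lack of a listed peak does not show that the chromatin was closed.

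Many of these genes shared a peak with a neighbouring gene, whose direction was not examined. Of the 64 genes with a gene-end peak, 34 (53.1%) shared it with the end of another protein-coding gene, against 27.3% of all genes with a peak. In complex V it was 8 of 13 and in complex IV 1 of 6. The shared peaks had a median of 4.67-fold and the 30 others 5.41-fold, whereas over all genes the medians were 6.32 and 6.34. Some partners also encode mitochondrial proteins. Ndufb5 shared its peak with Mrpl47 and Ndufs6 with Mrpl36, both genes of mitochondrial ribosomal proteins, and Atp5e with Prelid3b, a lipid transfer protein gene. Others do not: Ndufaf2 shared its peak with the DNA repair gene Ercc8, Atp5c1 with Kin, and Atp5pb with Wdr77. A shared peak cannot be assigned to one of the genes. Among genes with no other protein-coding gene end within 5 kb, the share with a peak was 50% of members and 34.2% of all protein-coding genes.

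Other large housekeeping complexes gave similar values. Genes of mitochondrial ribosomal proteins had a gene-end peak in 57 of 78 (73.1%, median 5.36-fold), proteasome genes in 36 of 51 (70.6%, 5.06-fold) and cytosolic ribosomal protein genes in 64 of 101 (63.4%, 4.91-fold). The respiratory chain genes lay within the range of these shares and just below their medians. The share of peaks with a neighbour was 53.1% for the respiratory chain, 54.4% for mitochondrial ribosomal proteins, 33.3% for the proteasome and 31.2% for cytosolic ribosomal proteins.

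Other genes of the pathway had peaks more often than the members, and of greater height. Of 81 such genes 66 had one (81.5%), with a median of 6.86-fold. Over all protein-coding genes the share was 44.5% and the median 6.33-fold, so the height was near that of all genes. All 13 citric acid cycle genes had a gene-end peak, led by Sucla2 (10.8), Dlst (9.58) and Ogdh (7.95). Of the carriers and channels of the mitochondrial membranes, 6 of 7 had one, with Vdac3 (11.5), Vdac1 (9.93) and Vdac2 (9.80) highest and none at Slc25a31, the testis form of the ADP/ATP carrier. Slc25a4, the muscle form, had 7.60-fold, so at this carrier a form named for muscle did have a peak. Cytochrome c itself, Cycs, had 6.67-fold and Cyc1, the cytochrome of complex III, 7.52-fold, while the testis form Cyct had none.

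Regulators of these genes had peaks at 11 of 12, against 44.5% of all protein-coding genes. Nrf1 (9.72-fold), Ppargc1b (9.45) and Esrra (8.20) were highest, and Gabpb1 had none. Ppargc1a, the inducible coactivator of mitochondrial genes, was the lowest at 4.59-fold. Assembly factors of complexes II to V stood at 21 of 30, led by Cox15 (10.7), Sdhaf1 (9.37) and Ttc19 (9.11), with Cox10, Cox16 and Cox17 among those without. Ubiquinone synthesis genes stood at 7 of 10, led by Coq9 (11.3), Coq2 (7.93) and Coq8a (7.88), and Pdss1, Pdss2 and Coq4 had none.

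Marker genes of the uterus and its cells were also looked up, in lists of 3 to 5 genes. These lists are too short to compare with the 44.5% of all protein-coding genes that had a gene-end peak. Among uterine markers Emx2 (5.92-fold) and Hoxa11 (3.65) had one, whereas Hoxa10, Pgr and Esr1 had none. Epithelial markers stood at 2 of 5, stromal and smooth muscle markers at 1 of 4 each, and endothelial, immune and blastocyst markers at 0 of 3 each. All cell types of the uterus are mixed in the samples, so a gene open in few cells and a gene little open in many cannot be told apart.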

How the data were processed

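FAIRE DNA of 3 uteri in 1 group was sequenced by the submitters. FastQC, Bowtie2, HOMER and MACS2 on build GRCm38.p5 are named in the submitters' processing notes. For versions, threshold, control and pooling, the sources used here give nothing. The authors deposited 1 peak table with pileup (a coverage signal), fold enrichment (a ratio) and −log10 q-value per peak, per the file headers. Library depth is unknown.

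Genes and promoter windows came from RefSeq GRCm38.p6. Patch releases leave chromosome coordinates as they are. Protein-coding genes on chromosomes 1 to 19 and X were used, without 108 whose start lies below 3 Mb, read as scaffold coordinates. Peaks were joined to genes by any overlap with 1 kb around either end, with Python 3.11.15 and pandas 2.3.3. The joining was tested on simulated data. Since the table names no sample, no test was made.

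By the rule for named genes, members with and without a peak and isoform pairs are named. Some results are not reported here. The members and lists were chosen with earlier results of these data known. The plan called local background high above 5 times its median, computed as (pileup + 1) / fold − 1.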

Additional observations from a re-analysis of the deposited data

How the results depend on the processing

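Of 146 values recomputed under 11 alternatives, 125 stayed within 1.5 times the value given. The 125 include the 0% of the tissue-specific isoforms, which could not rise with windows of 500 bp, with summits or with fewer peaks. The alternatives were windows of 500 bp or 5 kb, summits in place of overlap, fewer peaks, isolated genes, scaffold genes kept, start sites, and Ndufa4 and Ndufa4l2 in complex IV. The joint use of gene ends and start sites was chosen after seeing the data. Fewer peaks lowered the shares by construction. With the 6206 peaks of highest fold, genes with a gene-end peak were 24.0% of members, 19.5% of complex I, 25% of its assembly factors, 25% of complex II, 25% of complex III, 16.7% of complex IV, 41.2% of complex V and 26.2% of all protein-coding genes. With the 6206 of highest −log10 q they were 26.0%, 19.5%, 25%, 50%, 25%, 16.7%, 47.1% and 26.0%, in the same order. With the first set the members' share was thus below that of all genes, and with the second the difference ended. Windows of 5 kb gave complex IV 50%. Where the next gene end was over 5 kb away, complex IV stood at 20% (1 of 5), complex V at 33.3% (1 of 3), and the median fold was 7.44 for the assembly factors (2 genes) and 7.75 for complex III (1 gene). Leaving out the 30 peaks of high local background changed the share of no complex. Leaving out a mouse was not possible, since the table names no sample, and unknown depth limits what the lack of a peak can show.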
